A study of Homo sapiens with 8 samples.

Results

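The small nuclear RNAs (snRNAs) described here are the 137 rows of a table of 17788 genes that carry the snRNA biotype and a name starting with RNU, with the 267 U6 loci set aside. They were chosen by biotype and name, with earlier results of these data known. By name they fall into 25 U1, 18 U2, 21 U4, 9 U5, 4 U4atac, 7 U6atac, 2 U11, 1 U12 and 50 U7 loci. Of the 137, 11 have names that do not end in P, and the other 126 end in P, the usual mark of a pseudogene in human gene names. The rows named RNU11 and RNU12 have the biotype lncRNA in the table and were therefore not among the members.

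RNA came from HCT116 cells, a line established from a human colorectal carcinoma, as spindle preparations of STAU1-KO cells, whole-cell RNA (input) of STAU1-KO cells, spindle preparations of WT cells and input of WT cells, with 2 libraries in each group. STAU1, knocked out with CRISPR, codes for Staufen1, which binds double-stranded stretches of RNA. All STAU1-KO libraries carry the same clone code, so genotype and clone cannot be told apart. Cells of all 4 groups were held in late G2 with RO-3306, an inhibitor of the kinase CDK1, for 16 h, then released into 100 µM taxol for 15 min and shaken off as mitotic cells. Taxol stabilises microtubules, and the spindles were pelleted through a glycerol cushion before total RNA was depleted of ribosomal RNA and made into stranded libraries. The comparisons ask which RNAs sit with the spindle in mitosis and whether that depends on STAU1.

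Spliceosomal snRNAs are short, stable RNAs that pair with the pre-mRNA and with each other while introns are removed. U1 pairs with the 5′ splice site and U2 with the branch point. U4 and U6 join U5 as a tri-snRNP, and U5 holds the exon ends with a conserved loop. A minor set of introns is removed with U11, U12, U4atac and U6atac in the places of U1, U2, U4 and U6, while U5 serves both. U7 is no spliceosomal RNA: it guides the 3′ end cutting of histone mRNAs. Except for U6 and U6atac, these RNAs are made by RNA polymerase II, pass through the cytoplasm and receive a ring of Sm proteins (in U7, with LSM10 and LSM11) before they return to the nucleus. In mitosis the nuclear envelope is open, and snRNPs are found throughout the cell.

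Loci of U1, U2, U4, U4atac and U6atac are shown, since these families differ in their values below, with the stretch that matters in capitals. Sequences are the GENCODE 29 transcripts (GRCh38), matched by Ensembl gene ID, written 5′ to 3′ as DNA. For U1 the capitals mark ACTTACCTG, which pairs with the 5′ splice site:
RNU1-1: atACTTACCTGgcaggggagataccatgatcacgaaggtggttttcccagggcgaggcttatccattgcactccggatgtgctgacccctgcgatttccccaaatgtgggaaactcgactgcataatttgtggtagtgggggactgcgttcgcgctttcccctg
For the U2 copy with the most reads they mark GTAGTA, the stretch that pairs with the branch point in U2:
RNU2-59P: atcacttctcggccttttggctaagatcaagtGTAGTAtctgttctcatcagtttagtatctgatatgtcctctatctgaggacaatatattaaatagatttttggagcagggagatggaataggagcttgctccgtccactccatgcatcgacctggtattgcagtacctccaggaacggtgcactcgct
For the 2 U4 loci they mark the bases at which the genes differ, C37T, G88A, C99A and C113T, with RNU4-1 first and positions counted from 1 at the 5′ end:
RNU4-1: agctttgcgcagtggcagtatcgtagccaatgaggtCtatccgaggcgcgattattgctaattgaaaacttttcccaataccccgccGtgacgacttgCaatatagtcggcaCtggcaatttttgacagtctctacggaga
RNU4-2: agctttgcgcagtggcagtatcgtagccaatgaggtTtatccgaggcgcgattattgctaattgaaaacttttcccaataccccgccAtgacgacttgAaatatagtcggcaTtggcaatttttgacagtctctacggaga
For U4atac they mark ATTTTTG, the letters of its Sm site, and U6atac, which has none, is in lower case throughout:
RNU4ATAC: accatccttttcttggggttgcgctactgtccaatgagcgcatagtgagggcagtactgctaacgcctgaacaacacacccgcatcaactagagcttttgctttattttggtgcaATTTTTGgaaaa
RNU6ATAC: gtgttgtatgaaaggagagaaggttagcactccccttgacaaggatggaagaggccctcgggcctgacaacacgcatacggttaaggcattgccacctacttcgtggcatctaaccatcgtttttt

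ACTTACCTG, searched on the transcript strand within the first 12 bases, was found in 7 of 24 U1 sequences and in 0.613% of the 8151 GENCODE genes with a transcript of 50 to 200 bases. RNU5A-1 and RNU5B-1 are 93.97% identical, and RNU5E-1 and RNU5A-1 are 88.33% identical. RNU4-1 and RNU4-2 are 97.16% identical. RNU1-1 and RNU1-2 are identical, and GENCODE 29 holds 8 full-length copies of this sequence, so a read from it has no single source. How the authors counted reads that match several loci is not given in the sources used here, and the values of U1, and of copies close to another locus, are uncertain to that extent.

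Depth was low for most loci. Reads recovered from the deposited FPKM values (fragments per kilobase of transcript, scaled per library by the authors) sum to 31335 over the 137 loci and 8 libraries. The libraries held 5209596 to 14575440 reads on listed genes. The FPKM scale did not follow these read totals. WT spindle replicate 1 had 5209596 reads and a summed FPKM of 323825, and WT spindle replicate 2 had 6600374 reads and a summed FPKM of 617169. The members held between 0.0278% and 0.0801% of the reads of a library. Only 15 loci had at least 100 reads over the 8 libraries, 6 had at least 1000, and 66 had fewer than 10, with a median of 10. For a locus of 62 bases, 1 read was worth 1.23 and 1.73 FPKM in STAU1-KO spindles, 1.05 and 0.919 in STAU1-KO input, 1.98 and 3.18 in WT spindles, and 1.57 and 1.38 in WT input. The table lists only genes whose mean FPKM reached 1 in at least 1 group, and 35 members reached it in WT spindles alone, against 5 in STAU1-KO spindles alone, 3 in STAU1-KO input alone and 1 in WT input alone. A low locus listed through its highest group had to be higher there, so the counts of calls, the medians and the sums over copies below describe the listed loci and support nothing about snRNA copies at large.

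STAU1 itself had 4.59 and 4.88 FPKM in STAU1-KO input, against 31.9 and 28.5 FPKM in WT input, a called fall of -2.44 (limma adjusted p = 0.00889). In spindles it had 9.83 and 9.83 FPKM in STAU1-KO cells, against 11.5 and 16.2 FPKM in WT cells, which was not called (-0.44 ± 0.16, limma adjusted p = 0.113). The 28S ribosomal RNA gene RNA28S5 took 46.1% of reads in WT spindle replicate 2 (95% Wilson interval 46.10% to 46.18%), against 10.8% to 13.6% in the other spindle libraries and 1.29% to 1.64% in input. The epithelial markers EPCAM, KRT8, KRT18, KRT19 and CDH1 were present in all libraries, between 6.06 and 574 FPKM. Of the markers of blood, fibroblast and endothelial cells only COL1A1 is listed, at 0.753 to 6.69 FPKM, with the higher values in spindles. The nuclear RNA NEAT1 had 261 to 481 FPKM in spindle libraries, against 10.6 to 11.9 FPKM in input. Summed FPKM of the mitochondrial coding genes was 871 to 3150 in spindle libraries, against 7402 to 8347 in input. The part of these shifts in the snRNA results was not tested.

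Summed over all 137 loci, FPKM was about 2-fold higher in spindle preparations than in input in both genotypes. The sums were 4260 and 4064 FPKM in STAU1-KO spindles, against 1976 and 2144 FPKM in STAU1-KO input, a ratio of 2.02 between means. They were 4471 and 4750 FPKM in WT spindles, against 2272 and 2414 FPKM in WT input, a ratio of 1.97. Spindle and input libraries did not overlap in either genotype. As shares of the reads on listed genes, the members held 0.0640% and 0.0619% in STAU1-KO spindles, against 0.0278% and 0.0299% in STAU1-KO input. In WT cells they held 0.0801% and 0.0421% in spindles, against 0.0305% and 0.0323% in input. The size of the change in WT spindle replicate 2 thus depended on the scaling. In such bulk preparations a change in the cells or material collected and a change in RNA per cell cannot be told apart. No test was made on sums, since the members were chosen with results of these data known, and a larger share of snRNA in the pellet cannot be told apart from a smaller share of other RNAs.

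The families differed in size and in this ratio. U4 held 49.9% of all member reads and U5 32.9%, U2 copies 9.99% and U1 3.76%. Summed U5 FPKM was 3.46 times as high in spindles as in input of STAU1-KO cells and 2.79 times as high in WT cells. For U4 the ratios were 1.39 in STAU1-KO cells and 1.5 in WT cells. For the sum of the 2 U1 loci without P they were 0.557 in STAU1-KO cells and 0.824 in WT cells, the opposite direction from U5 as deposited. In WT cells only RNU1-1 was lower in spindles, while RNU1-2 was higher there on average, with overlapping libraries. Under a scaling to equal coding sums the direction of RNU1-1 in WT cells and of RNU1-2 in STAU1-KO cells turned. The 23 U1 copies ending in P had ratios of 1.74 in STAU1-KO cells and 1.70 in WT cells.

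**Figure D1:**
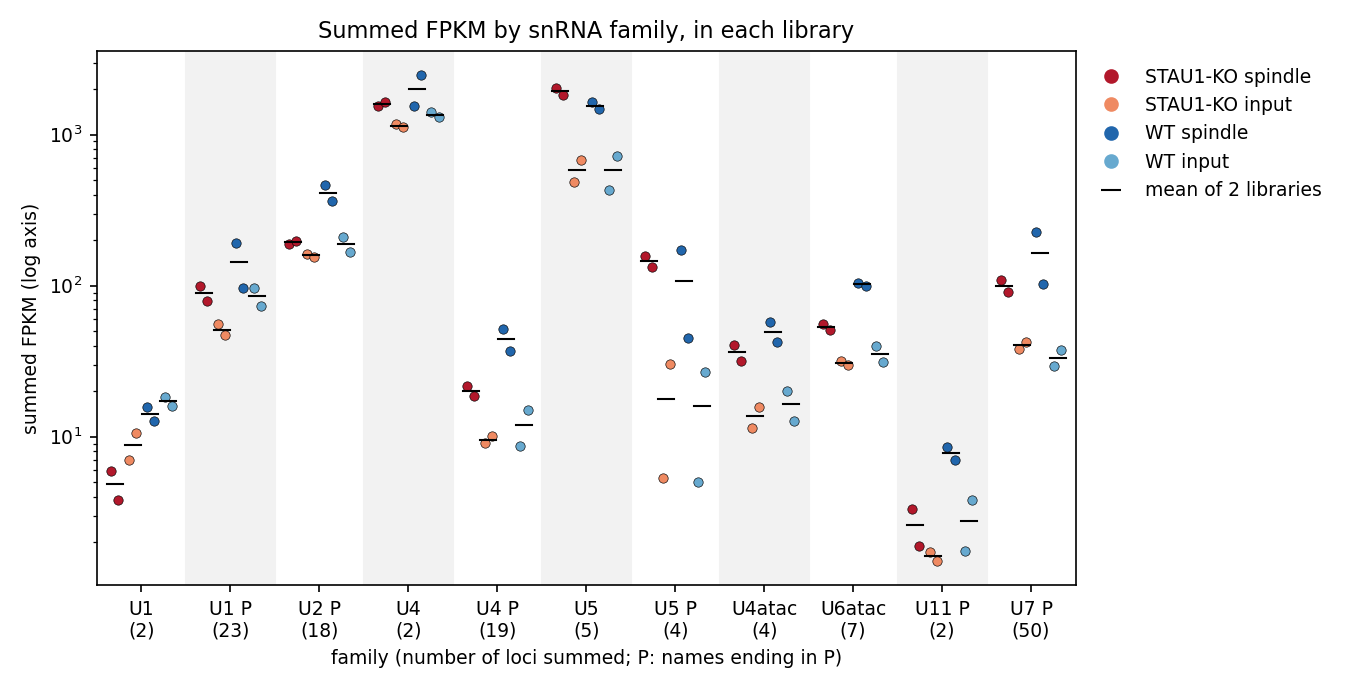
Summed FPKM (log axis) of each snRNA family in the 8 libraries, where each point is 1 library, each bar the mean of 2, and the number of loci summed is in brackets. The 5 U5 loci lie at 1467 to 2036 FPKM in spindle libraries against 432 to 725 FPKM in input, while the 2 U1 loci lie lower in spindles than in input of STAU1-KO cells, at 3.81 and 5.94 against 6.98 and 10.5 FPKM.

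Each locus was tested with limma on log2(FPKM + 1) over all tested genes, and called at an adjusted p under 0.05. This scale understates the change of low loci. Of the 137 members, 120 passed the filter of at least 1 FPKM in at least 2 libraries. In STAU1-KO cells 22 were called higher in spindles and 2 lower, where 49.2% of all 17217 tested genes were called, 22.1% higher and 27.1% lower. The members' shares were 18.3% higher and 1.67% lower. In WT cells 37 were called higher and 2 lower, where 60.3% of all genes were called, 27.6% higher and 32.7% lower. The members' shares were 30.8% higher and 1.67% lower. The median change over the tested members was 0.63 in STAU1-KO cells and 0.85 in WT cells, against -0.02 and 0.00 over all tested genes. Of the loci called higher, 18 were called in both genotypes, which is 81.8% of the STAU1-KO list and 48.6% of the WT list. No locus was called lower in both. The share of all genes called in both genotypes was not computed, so nothing is read from this overlap. The p-values rest on the spread between 2 libraries a group.

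U5 carried the highest values among the loci called. RNU5E-1 (ENSG00000199347, chromosome 1), a U5 variant gene, had 637 and 555 FPKM in STAU1-KO spindles, 161 and 239 FPKM in STAU1-KO input, 540 and 376 FPKM in WT spindles, and 165 and 198 FPKM in WT input. All 4 spindle libraries were above all 4 input libraries. The change was 1.60 ± 0.30 (log2, SE, n = 2 each, limma adjusted p = 0.00631) in STAU1-KO cells and 1.32 ± 0.30 (limma adjusted p = 0.00991) in WT cells. Of 19 alternative settings, which include leaving out each library, 18 kept the call in STAU1-KO cells (highest adjusted p 0.0569) and 16 in WT cells (highest adjusted p 0.0900).

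RNU5B-1 (ENSG00000200156, chromosome 15), the second of the near-identical pair on that chromosome, had 580 and 537 FPKM in STAU1-KO spindles, 78.2 and 143 FPKM in STAU1-KO input, 350 and 417 FPKM in WT spindles, and 40.8 and 153 FPKM in WT input. Spindle and input did not overlap, and the input replicates differed by 3.75 times in WT cells. The change was 2.39 ± 0.61 (limma adjusted p = 0.0195) in STAU1-KO cells and 2.25 ± 0.61 (limma adjusted p = 0.0191) in WT cells. The call was kept under 16 of 19 settings in STAU1-KO cells (highest adjusted p 0.112) and 15 in WT cells (highest adjusted p 0.188). RNU5D-1 (ENSG00000200169, chromosome 1), a lower U5 variant, had 77.9 and 76.5 FPKM in STAU1-KO spindles, 23 and 27.5 FPKM in STAU1-KO input, 71.0 and 51.9 FPKM in WT spindles, and 13.9 and 32.2 FPKM in WT input. It was called higher in spindles of both genotypes, by 1.58 ± 0.37 (limma adjusted p = 0.0142) in STAU1-KO cells and 1.47 ± 0.37 (limma adjusted p = 0.0145) in WT cells. The STAU1-KO call was lost without any one of the 4 STAU1-KO libraries (highest adjusted p 0.0801), and the WT call was kept under 16 of 19 settings.

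RNU5A-1 (ENSG00000199568, chromosome 15), the other gene of the pair, had 578 and 532 FPKM in STAU1-KO spindles, 199 and 237 FPKM in STAU1-KO input, 369 and 604 FPKM in WT spindles, and 186 and 310 FPKM in WT input. The groups did not overlap in either genotype. It was called in STAU1-KO cells, with a change of 1.35 ± 0.35 (limma adjusted p = 0.0213), lost when any STAU1-KO library was left out (highest adjusted p 0.124). In WT cells, with 0.97 ± 0.35, it missed the threshold (limma adjusted p = 0.0531), and the difference between the genotypes, 0.38 ± 0.50, was not called (limma adjusted p = 0.708).

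RNU5F-1 (ENSG00000199377, chromosome 1) had the widest gap between WT spindle replicates among the 15 loci with at least 100 reads. It had 164 and 121 FPKM in STAU1-KO spindles, 25.4 and 30.1 FPKM in STAU1-KO input, 302 and 17.8 FPKM in WT spindles, and 26.7 and 31.9 FPKM in WT input. The WT spindle libraries stood on either side of input, with 249 reads in the first library and 9 in the second. Neither comparison was called (2.30 ± 1.15, limma adjusted p = 0.143, in STAU1-KO cells and 1.32 ± 1.15, limma adjusted p = 0.35, in WT cells), and without WT spindle replicate 1 the WT change was -0.68. Among the 15 loci with at least 100 reads, WT spindle replicates differed more than 4-fold for 3, RNU5F-1, RNU1-60P and RNU1-85P, all higher in replicate 1, and replicates of each other group did so for 1.

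Of the U5 copies ending in P, RNU5A-8P (ENSG00000200972, chromosome 1) had the most reads, 512. It had 140 and 125 FPKM in STAU1-KO spindles, 4.68 and 25.1 FPKM in STAU1-KO input, 143 and 44.7 FPKM in WT spindles, and 4.05 and 23.9 FPKM in WT input. Its spindle values were above all input values, and its input replicates differed over 5-fold in each genotype. It was called higher in spindles by 3.45 ± 1.02 (limma adjusted p = 0.0321) in STAU1-KO cells and 2.85 ± 1.02 (limma adjusted p = 0.0497) in WT cells. The WT call was kept under 9 of 19 settings (highest adjusted p 0.327). RNU5E-4P had 15.5 and 7.29 FPKM in STAU1-KO spindles, 0.636 and 1.11 FPKM in STAU1-KO input, 24.9 and 0 FPKM in WT spindles, and 0.962 and 0.842 FPKM in WT input, and was not called. Its WT spindle counts, 21 reads in the first library and 0 in the second, place it with RNU5F-1 among the loci that split the WT spindle libraries.

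**Figure D2:**
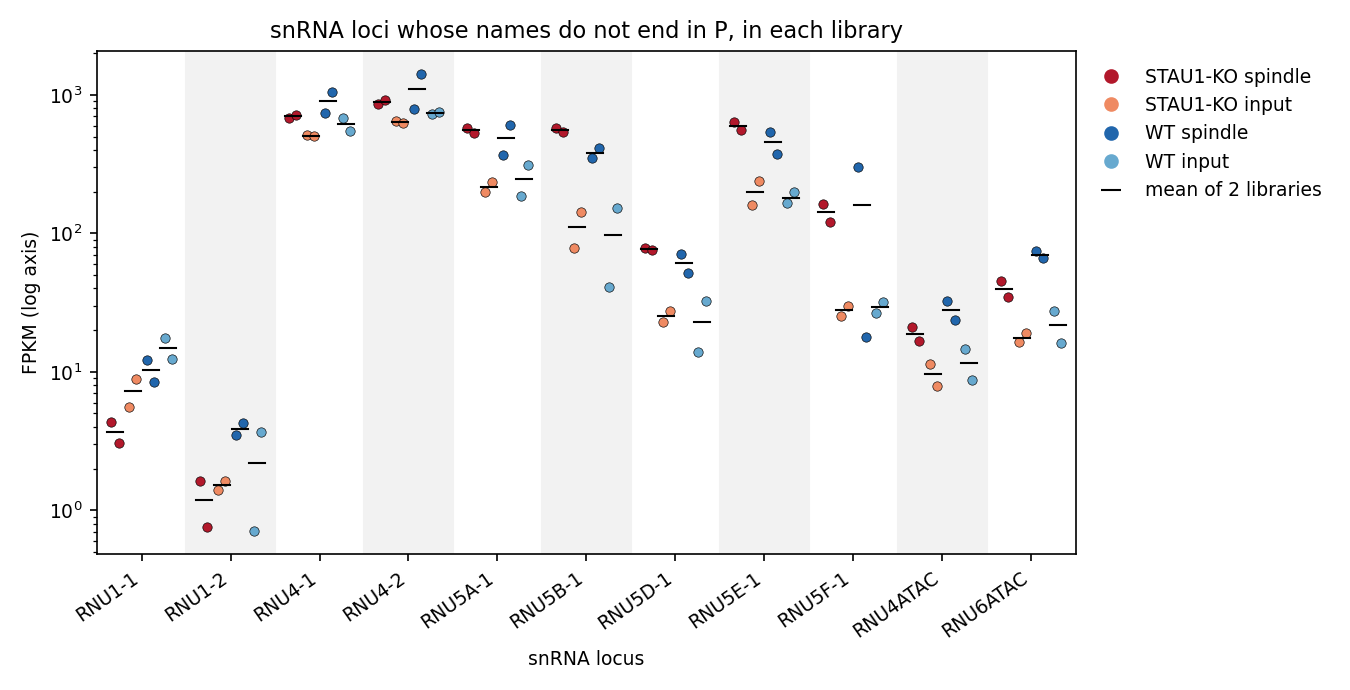
FPKM (log axis) of the 11 loci whose names do not end in P, where each point is 1 library and each bar the mean of 2. RNU5A-1, RNU5B-1, RNU5D-1 and RNU5E-1 lie higher in all spindle libraries than in input of the same genotype, and RNU5F-1 splits the WT spindle libraries at 302 and 17.8 FPKM.

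U4 was the family with the most reads, and its spindle-to-input change was smaller than that of U5. RNU4-2 (ENSG00000202538, chromosome 12), the locus with the most reads, had 860 and 914 FPKM in STAU1-KO spindles, 654 and 623 FPKM in STAU1-KO input, 797 and 1428 FPKM in WT spindles, and 727 and 752 FPKM in WT input. RNU4-1 (ENSG00000200795, chromosome 12), the other main U4 gene, had 682 and 721 FPKM in STAU1-KO spindles, 514 and 502 FPKM in STAU1-KO input, 748 and 1050 FPKM in WT spindles, and 684 and 553 FPKM in WT input. For both genes every spindle library was above the input libraries of its genotype. Neither was called: the changes were 0.47 ± 0.37 (RNU4-2) and 0.46 ± 0.30 (RNU4-1) in STAU1-KO cells and 0.53 ± 0.37 and 0.53 ± 0.30 in WT cells (limma adjusted p between 0.173 and 0.319). Of 120 tested members, 51 lay wholly higher in spindles in each genotype without regard to the test, which is 42.5%, where 40.2% of all genes did so in STAU1-KO cells and 37.4% in WT cells. Wholly lower in spindles were 11 members in STAU1-KO cells (44% of all genes) and 5 in WT cells (40% of all genes).

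Ratios between loci within a library do not depend on how libraries are scaled. The ratio of summed U5 to summed U4 FPKM was 1.40 and 1.18 in STAU1-KO spindles, against 0.417 and 0.622 in STAU1-KO input. In WT cells it was 1.13 and 0.601 in spindles, against 0.308 and 0.570 in input. It was thus higher in spindles in both genotypes, narrowly so for WT spindle replicate 2. Within U5, RNU5B-1 over RNU5A-1 was 1.00 and 1.01 in STAU1-KO spindles, 0.394 and 0.603 in STAU1-KO input, 0.95 and 0.690 in WT spindles, and 0.219 and 0.494 in WT input. Groups did not overlap in either genotype, so the balance of this near-identical pair differed between spindle and input. These ratios were chosen after their values were seen and have no test.

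**Figure D3:**
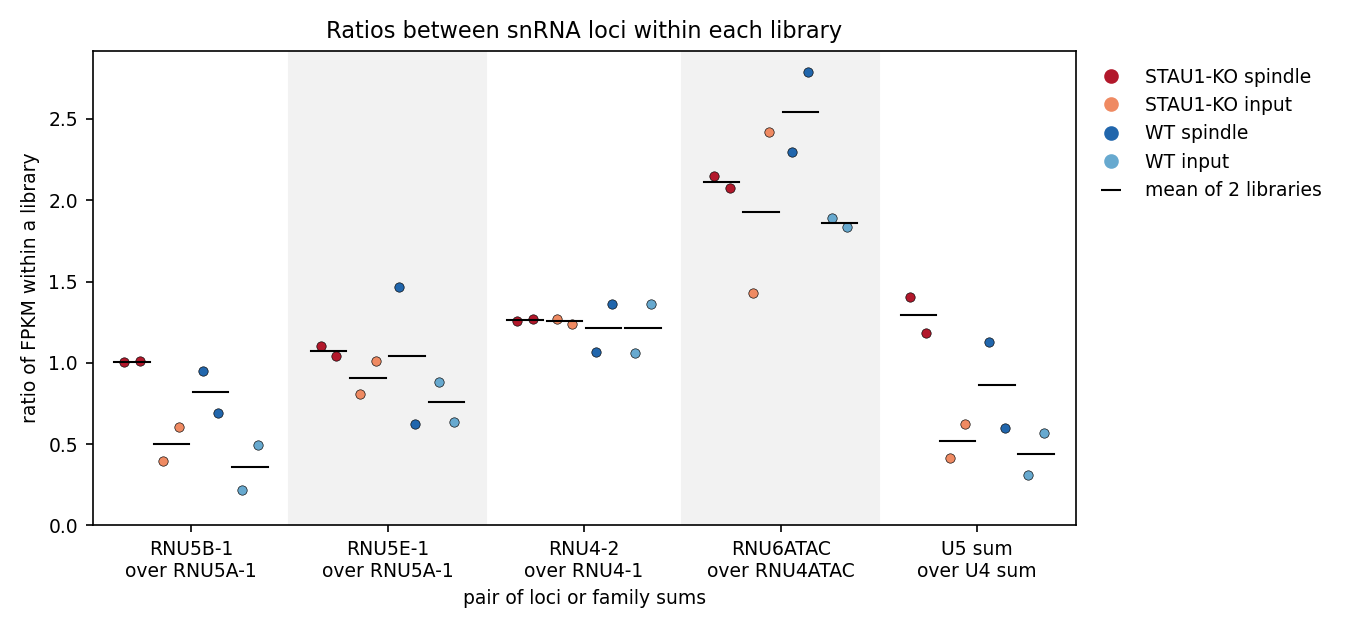
Ratios of FPKM between loci or family sums within each library, with 1 point per library and a bar at the mean of 2. RNU5B-1 over RNU5A-1 is 0.690 to 1.01 in spindle libraries against 0.219 to 0.603 in input, while RNU4-2 over RNU4-1 stays within 1.06 to 1.36 in all 8 libraries.

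The U4atac and U6atac genes of the minor spliceosome were higher in spindles. RNU6ATAC (ENSG00000221676, chromosome 9), which pairs with the 5′ splice site of minor introns, had 45.0 and 34.7 FPKM in STAU1-KO spindles, 16.3 and 19 FPKM in STAU1-KO input, 74.4 and 66.1 FPKM in WT spindles, and 27.5 and 16.0 FPKM in WT input. Spindle and input did not overlap. STAU1-KO spindles lay below WT spindles, by a change of -0.81 that was not called. Between spindle and input RNU6ATAC was called by 1.12 ± 0.26 (limma adjusted p = 0.0142) in STAU1-KO cells and by 1.69 ± 0.26 (limma adjusted p = 0.00219) in WT cells. All 19 settings kept the WT call, and 16 kept the STAU1-KO call, which was lost without STAU1-KO spindle replicate 1 or either STAU1-KO input library (highest adjusted p 0.0872).

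RNU4ATAC (ENSG00000264229, chromosome 2), its partner RNA, had 20.9 and 16.7 FPKM in STAU1-KO spindles, 11.4 and 7.86 FPKM in STAU1-KO input, 32.4 and 23.7 FPKM in WT spindles, and 14.6 and 8.75 FPKM in WT input. Its groups kept the same order as those of RNU6ATAC, and the difference between its spindle groups was not called either. RNU4ATAC was called by 0.91 ± 0.29 (limma adjusted p = 0.0414) in STAU1-KO cells and by 1.22 ± 0.29 (limma adjusted p = 0.0119) in WT cells. The STAU1-KO call was lost without any one of the 4 STAU1-KO libraries (highest adjusted p 0.203). For neither RNA was the difference between genotypes called (-0.57 ± 0.37, limma adjusted p = 0.433, for RNU6ATAC and -0.31 ± 0.41, limma adjusted p = 0.708, for RNU4ATAC).

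The rows RNU11 and RNU12, which are no members, carry the RNAs that replace U1 and U2 in this spliceosome. RNU11 had 57.5 and 60.6 FPKM in STAU1-KO spindles, 48.9 and 63.1 FPKM in STAU1-KO input, 78.5 and 74.3 FPKM in WT spindles, and 82.7 and 70.1 FPKM in WT input, with overlapping groups. The row RNU12, listed at 664 bases and so longer than the 150-base snRNA of that name in GENCODE 29, had 46.4 and 48.2 FPKM in STAU1-KO spindles, 30.8 and 26.1 FPKM in STAU1-KO input, 86.7 and 34.2 FPKM in WT spindles, and 48.0 and 29.7 FPKM in WT input. Neither was called in either genotype (limma adjusted p between 0.213 and 0.990). RNU12-2P, the U12 member, had 3 reads in all and did not pass the filter, with 0.911 and 1.48 FPKM in WT spindles, 0 and 0.647 FPKM in WT input and 0 in all STAU1-KO libraries.

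Copies of the minor RNAs were read at single-digit counts in most libraries. RNU4ATAC11P had 8.44 and 5.95 FPKM in STAU1-KO spindles, 0 and 1.58 FPKM in STAU1-KO input, 11.3 and 9.18 FPKM in WT spindles, and 1.83 and 0.802 FPKM in WT input, and was called higher in both genotypes, by 2.33 ± 0.46 (limma adjusted p = 0.00760) in STAU1-KO cells and 2.31 ± 0.46 (limma adjusted p = 0.00600) in WT cells. RNU4ATAC18P, not called, had 4.22 and 6.94 FPKM in STAU1-KO spindles, 0 and 4.22 FPKM in STAU1-KO input, 7.89 and 5.51 FPKM in WT spindles, and 2.75 and 3.21 FPKM in WT input. The U6atac copies did not move together. RNU6ATAC24P had 1.97 and 1.85 FPKM in STAU1-KO spindles, against 6.78 and 6.41 FPKM in STAU1-KO input, a called fall of -1.38 ± 0.29 (limma adjusted p = 0.00952), and had 3.16 and 5.14 FPKM in WT spindles, against 5.13 and 9.73 FPKM in WT input, which was not called. RNU6ATAC18P had 1.75 and 2.47 FPKM in STAU1-KO spindles, 1.51 and 0.659 FPKM in STAU1-KO input, 18.3 and 11.5 FPKM in WT spindles, and 1.14 and 2.0 FPKM in WT input, and was called higher in WT spindles by 2.61 ± 0.31 (limma adjusted p = 0.000728). RNU6ATAC24P and RNU6ATAC18P are 67.4% and 71.4% identical to RNU6ATAC, so they are distant from the RNA they are named for.

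The U11 copies, again of few reads, were RNU11-6P (13 reads) and RNU11-3P (19 reads). RNU11-6P had 2.67 and 1.88 FPKM in STAU1-KO spindles, 0 in both STAU1-KO input libraries, 5.34 and 1.74 FPKM in WT spindles, and 0.868 and 0 FPKM in WT input, and was called higher in both genotypes, each call kept under 14 of 18 settings. RNU11-3P had 0.666 and 0 FPKM in STAU1-KO spindles, 1.72 and 1.5 FPKM in STAU1-KO input, 3.20 and 5.22 FPKM in WT spindles, and 0.868 and 3.80 FPKM in WT input, and was not called between spindle and input.

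The 2 U1 loci without P had few reads, and all U2 loci end in P. RNU1-1 (ENSG00000206652, chromosome 1), the U1 gene shown above, had 4.32 and 3.05 FPKM in STAU1-KO spindles, 5.58 and 8.92 FPKM in STAU1-KO input, 12.1 and 8.47 FPKM in WT spindles, and 17.6 and 12.3 FPKM in WT input. It was lower in spindles than in input without overlap in both genotypes, the opposite order to RNU4-1, RNU4-2, RNU4ATAC and RNU6ATAC. The changes of RNU1-1 by -0.80 ± 0.29 (limma adjusted p = 0.0598) in STAU1-KO cells and -0.50 ± 0.29 (limma adjusted p = 0.179) in WT cells were not called, and with libraries scaled to equal sums over coding genes the WT change was 0.43, the opposite direction. That scaling moved the median change of all genes to 0.49 in STAU1-KO cells and 0.73 in WT cells. RNU1-2 (ENSG00000207005, chromosome 1), identical to it, had 1.62 and 0.762 FPKM in STAU1-KO spindles, 1.40 and 1.62 FPKM in STAU1-KO input, 3.47 and 4.23 FPKM in WT spindles, and 0.704 and 3.70 FPKM in WT input. With 25 reads in all its groups overlapped between spindle and input.

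Of 22 tested U1 copies ending in P, 6 were called higher and 0 lower in STAU1-KO spindles, and 5 higher and 0 lower in WT spindles. These shares of 27.3% in STAU1-KO cells and 22.7% in WT cells lie near the 22.1% and 27.6% of all genes called higher, and nothing is read from them. RNU1-106P, which keeps ACTTACCTG and is 91.5% identical to the U1 gene, had 14.0 and 6.09 FPKM in STAU1-KO spindles, 1.86 and 1.62 FPKM in STAU1-KO input, 19.9 and 15.5 FPKM in WT spindles, and 2.11 and 0.616 FPKM in WT input. It was called higher in both genotypes, by 1.92 ± 0.43 (limma adjusted p = 0.0118) in STAU1-KO cells and 3.05 ± 0.43 (limma adjusted p = 0.00144) in WT cells, kept under 16 of 19 settings in STAU1-KO cells and under all 19 in WT cells. RNU1-85P and RNU1-60P, the U1 copies with the highest mean FPKM, were not called. RNU1-85P had 7.56 and 2.29 FPKM in STAU1-KO spindles, 9.77 and 8.52 FPKM in STAU1-KO input, 29.5 and 4.23 FPKM in WT spindles, and 22.5 and 9.85 FPKM in WT input. RNU1-60P had 6.77 and 1.59 FPKM in STAU1-KO spindles, 5.34 and 5.93 FPKM in STAU1-KO input, 46.2 and 2.95 FPKM in WT spindles, and 11 and 7.72 FPKM in WT input. For both, 1 spindle library stood well above the other in each genotype.

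Most U2 reads were counted at 1 copy. No row of the U2 gene RNU2-1 is listed, so its reads have no row of their own. Whether any of them were counted at this copy was not tested. RNU2-59P (ENSG00000222414, chromosome 10) held 2776 of the 3130 U2 reads and is 95.29% identical to RNU2-1, of which GENCODE 29 holds 11 full-length copies. It had 166 and 165 FPKM in STAU1-KO spindles, 143 and 133 FPKM in STAU1-KO input, 423 and 326 FPKM in WT spindles, and 193 and 142 FPKM in WT input. WT spindles stood above all other libraries, and STAU1-KO spindles were above STAU1-KO input by a small margin. The change was 0.26 ± 0.23 (limma adjusted p = 0.371) in STAU1-KO cells and 1.16 ± 0.23 (limma adjusted p = 0.00542) in WT cells. The difference between these changes, -0.90 ± 0.32, was not called (limma adjusted p = 0.196). RNU2-6P, 93.2% identical to RNU2-1, had 7.0 and 11.2 FPKM in STAU1-KO spindles, 6.02 and 8.40 FPKM in STAU1-KO input, 12.7 and 12.2 FPKM in WT spindles, and 6.08 and 9.04 FPKM in WT input, and was not called. RNU2-63P, called lower in WT spindles and not called in STAU1-KO cells, had 2.74 and 1.93 FPKM in STAU1-KO spindles, 1.97 and 3.43 FPKM in STAU1-KO input, 2.93 and 2.39 FPKM in WT spindles, and 6.55 and 7.81 FPKM in WT input (WT change -1.16 ± 0.23, limma adjusted p = 0.00542).

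The 19 U4 copies ending in P summed to 20.1 FPKM in STAU1-KO spindles, 9.54 in STAU1-KO input, 44.3 in WT spindles and 11.9 in WT input (means of 2 libraries), which is little beside the 2 genes without P. RNU4-9P had 0.637 and 0.899 FPKM in STAU1-KO spindles, 1.65 and 0.479 FPKM in STAU1-KO input, 6.13 and 6.66 FPKM in WT spindles, and 0 and 1.45 FPKM in WT input. RNU4-80P had 0.628 and 2.66 FPKM in STAU1-KO spindles, 1.08 and 0 FPKM in STAU1-KO input, 4.03 and 8.21 FPKM in WT spindles, and 1.64 and 0.716 FPKM in WT input. Both were called higher in WT spindles, from 18 reads each. Of 18 settings, 17 kept the call of RNU4-9P (highest adjusted p 0.116), and 10 that of RNU4-80P (highest adjusted p 0.292), which was lost without WT spindle replicate 2 or either WT input library. RNU4-78P, from 14 reads, was called lower there: it had 1.41 and 0.992 FPKM in STAU1-KO spindles, 0.605 and 2.64 FPKM in STAU1-KO input, 0 in both WT spindle libraries, and 1.83 and 2.40 FPKM in WT input.

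The 50 U7 copies all end in P and together had 358 reads, with a highest count of 32 for 1 locus. Their summed FPKM was 108 and 90.8 in STAU1-KO spindles, 37.8 and 42.5 in STAU1-KO input, 228 and 102 in WT spindles, and 29.5 and 37.3 in WT input. Loci listed through their highest group enter these sums, so nothing is read from their order. Of 40 tested, 4 were called higher and 1 lower in STAU1-KO cells and 11 higher and 0 lower in WT cells. The shares called higher were 10.0% in STAU1-KO cells, where 22.1% of all genes were, and 27.5% in WT cells, where 27.6% were, so neither was above the share over all genes. RNU7-96P had 9.69 and 13.7 FPKM in STAU1-KO spindles, 4.77 and 2.08 FPKM in STAU1-KO input, 13.3 and 7.23 FPKM in WT spindles, and 3.61 and 3.16 FPKM in WT input, and was called higher in both, kept under 16 of 18 settings in STAU1-KO cells and 13 in WT cells. RNU7-124P, not called, had 12.9 and 10.1 FPKM in STAU1-KO spindles, 0 and 5.37 FPKM in STAU1-KO input, 11.5 and 3.73 FPKM in WT spindles, and 3.73 and 6.52 FPKM in WT input.

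The largest fitted changes of U7 copies came from a handful of reads. RNU7-80P had 3 and 1 reads in STAU1-KO spindles, 3 and 4 in STAU1-KO input, 8 and 2 in WT spindles, and 0 and 0 in WT input. RNU7-36P had 2 and 1 reads in STAU1-KO spindles, 0 and 0 in STAU1-KO input, 4 and 2 in WT spindles, and 0 and 0 in WT input. RNU7-151P had 1 and 0 reads in STAU1-KO spindles, 2 and 2 in WT spindles and 0 in all input libraries. All 3 were called higher in WT spindles, and RNU7-36P in STAU1-KO spindles too. No fold is given against groups at 0. RNU7-135P had 2 and 1 reads in STAU1-KO spindles, 0 and 0 in STAU1-KO input, 7 and 3 in WT spindles, and 1 and 2 in WT input, and was called higher in both genotypes. RNU7-136P, called lower in STAU1-KO spindles, had 0 and 0 reads there, against 2 and 2 in STAU1-KO input, with 0 and 0 in WT spindles and 1 and 0 in WT input.

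Calls at such depth rest on the spacing of single reads. Of the loci called higher in spindles, 6 of 22 in STAU1-KO cells and 13 of 37 in WT cells had 0 reads in both input libraries. Fewer than 20 reads over all 8 libraries stood behind 8 of the 22 and 19 of the 37. When only genes with at least 10 recovered reads in at least 2 libraries were tested, an alternative chosen after seeing the data, 25 members remained, of which 12 were called higher and 3 lower in STAU1-KO cells and 12 higher and 2 lower in WT cells. Of all 14862 genes tested in this way, 25.5% were called higher and 32.9% lower in STAU1-KO cells, and 28.9% higher and 38.6% lower in WT cells.

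**Figure D4:**
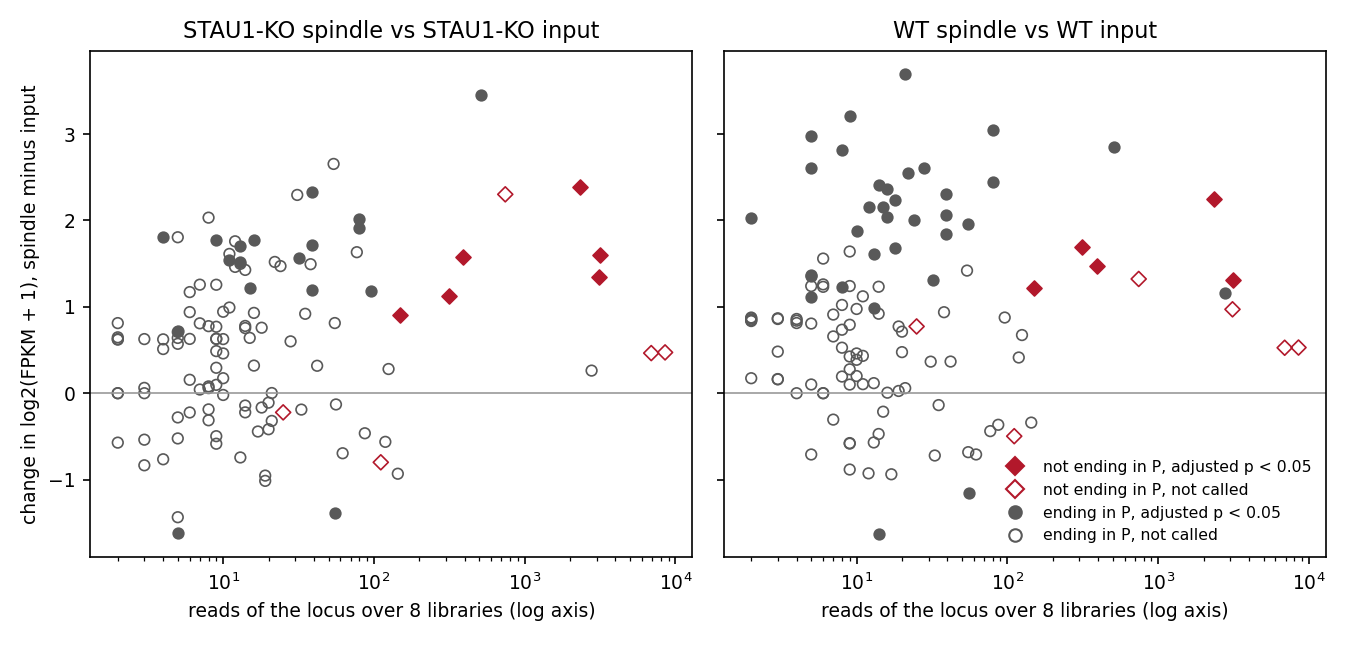
Change in log2(FPKM + 1), spindle minus input, of the 120 tested loci against their reads over all 8 libraries (log axis), for STAU1-KO (left) and WT cells (right); filled symbols were called by limma. Loci under 20 reads make up 8 of the 22 higher calls in STAU1-KO cells and 19 of the 37 in WT cells, while the 2 U4 loci with the most reads lie near 0.5 and were not called.

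STAU1-KO and WT input were compared to see whether the loci differed in whole mitotic cells. None of the 120 was called by limma, where 0.192% of all genes were called (0.0813% higher and 0.11% lower). At an unadjusted p under 0.05 there were 11, and the smallest adjusted p was 0.0972, for RNU7-135P. RNU1-1 and both U4 genes were lower in STAU1-KO input without overlap, by -0.96 ± 0.29 for RNU1-1 (limma adjusted p = 0.390), -0.27 ± 0.30 for RNU4-1 (limma adjusted p = 0.875) and -0.21 ± 0.37 for RNU4-2 (limma adjusted p = 0.929). Wholly lower in STAU1-KO input were 14.2% of the tested members and 27.8% of all genes.

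STAU1-KO spindles against WT spindles gave calls in 1 direction in the main fit. Listing through 1 group alone held for 35 members in WT spindles and 5 in STAU1-KO spindles. Those 35 had to lie lower in STAU1-KO spindles, so nothing is read from the count or the median below. There were 13 loci called lower and 0 higher, where 16.1% of all genes were called, 5.52% lower and 10.6% higher. The members' share called lower was 10.8%. The median change was -0.24 over the members and 0.04 over all genes. Under equal coding sums 14 members and 1816 of the 17217 genes were called lower, with medians of -0.42 and -0.12. Under equal upper quartiles 13 members and 1619 genes were called lower, with medians of -0.31 and -0.04. In each of these scalings 1 member was called higher. The number of all genes called lower, 950 in the main fit, thus depended on the scaling. The members' median lay below that of all genes by a similar margin in each scaling. RNU2-59P fell to 166 and 165 FPKM in STAU1-KO spindles, against 423 and 326 FPKM in WT spindles, a change of -1.16 ± 0.23 (limma adjusted p = 0.0236). RNU1-1 fell to 4.32 and 3.05 FPKM, against 12.1 and 8.47 FPKM in WT spindles, a change of -1.26 ± 0.29 (limma adjusted p = 0.0348). The groups did not overlap for either locus, and the call was kept under 13 of 19 settings for RNU2-59P (highest adjusted p 0.183) and 8 of 19 for RNU1-1 (highest adjusted p 0.293).

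Of the other 11 loci called lower in STAU1-KO spindles, 8 had fewer than 20 reads. RNU6ATAC18P changed by -2.33 ± 0.31 (limma adjusted p = 0.00993), RNU7-135P by -2.08 ± 0.25 (limma adjusted p = 0.00815) and RNU7-151P by -2.27 ± 0.46 (limma adjusted p = 0.0258), from 28, 16 and 5 reads over all libraries. RNU1-122P, named after its values were seen because it has 62 reads, had 2.93 and 1.65 FPKM in STAU1-KO spindles, against 6.59 and 4.6 FPKM in WT spindles. No locus of U5 was called between the spindle groups, and RNU5B-1, RNU5D-1 and RNU5E-1 were higher in STAU1-KO spindles without overlap, by 0.34 to 0.55. Wholly higher in STAU1-KO than in WT spindles were 7.5% of the tested members and 31.8% of all genes. Wholly lower were 30% of the members and 25.5% of all genes. The calls depended on single libraries: without either STAU1-KO spindle replicate there were 0, and without WT spindle replicate 1 or 2 there were 24, of which 14 and 23 were lower. With at least 10 reads in at least 2 libraries, 4 were called lower and 0 higher, where 7.59% of all genes were called lower and 14.4% higher.

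**Figure D5:**
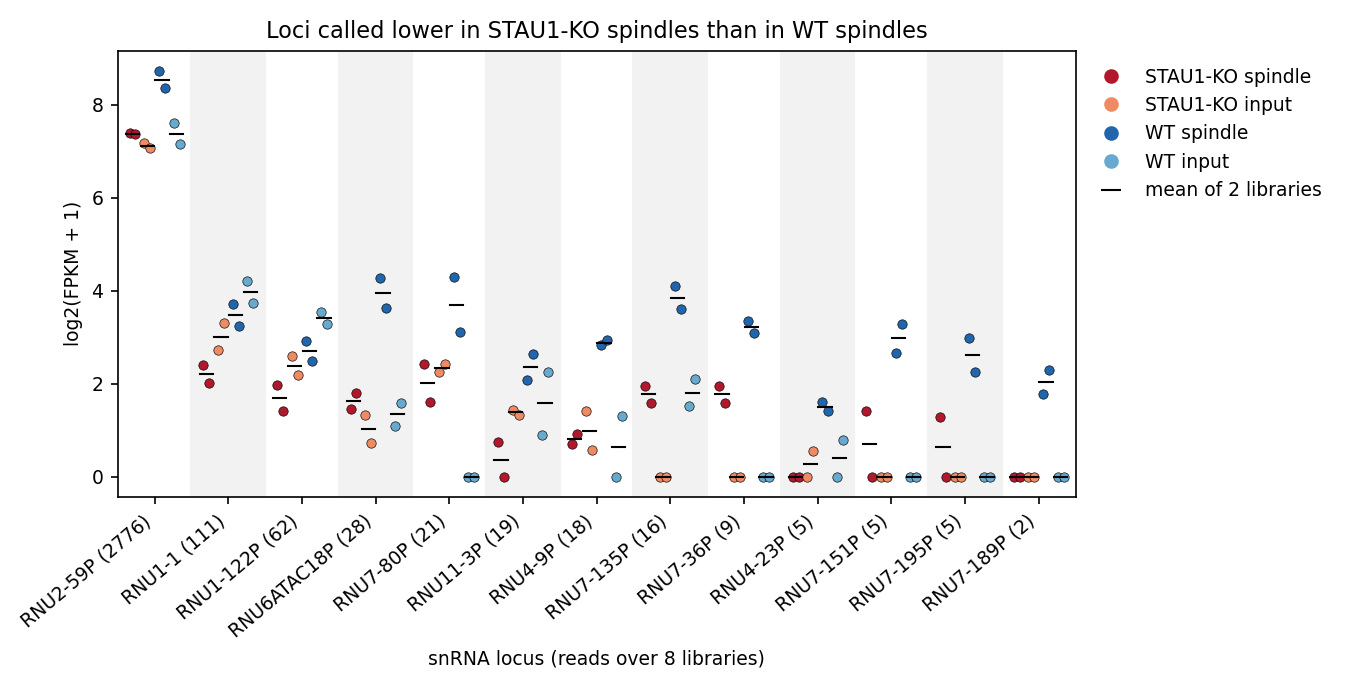
Values as log2(FPKM + 1) of the 13 loci called lower in STAU1-KO than in WT spindles, in all 4 groups, ordered by their reads over 8 libraries (in brackets), with 1 point per library and a bar at the mean of 2. RNU2-59P has the most reads, 2776, and 8 of the 13 have fewer than 20 reads.

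Whether spindle enrichment itself differed between STAU1-KO and WT cells was tested as an interaction. It was called for 0 of the 120 loci by limma, where 0.0929% of all genes were called (0.0755% higher and 0.0174% lower). At an unadjusted p under 0.05 there were 15, and the smallest adjusted p was 0.0562. Calls in 1 genotype alone, as for RNU5A-1, RNU2-59P or RNU6ATAC24P, are therefore not shown to differ between genotypes.

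By position in GENCODE 29, 86 of the 137 loci lie in the introns of a longer gene on the same strand, 28 lie outside longer genes, 11 lie antisense to one and 2 overlap an exon on the same strand; 10 IDs were not matched. Intronic loci had a median change of 0.63 in STAU1-KO cells and 0.82 in WT cells, with 11 of 76 tested called higher in STAU1-KO cells and 24 of 76 in WT cells. Loci outside longer genes had medians of 0.47 in STAU1-KO cells and 0.86 in WT cells, with 6 of 25 and 7 of 25 called higher. Both positions lie below or near the shares over all genes: 14.5% of intronic loci and 24.0% of those outside were called higher in STAU1-KO cells, where 22.1% of all genes were, and 31.6% and 28% in WT cells, where 27.6% were. Over 63 pairs of an intronic locus and its tested host gene, the hosts' median change was -0.03 in STAU1-KO cells and 0.03 in WT cells. Across these pairs, which share their libraries and are not independent, the changes of locus and host had r = 0.29 in STAU1-KO cells and -0.03 in WT cells. RNU1-106P lies in PVT1, which changed by 1.27 in STAU1-KO and 1.23 in WT cells, and RNU6ATAC24P in PPP1R2 (-1.14 in STAU1-KO cells). The hosts of RNU6ATAC18P (DHRS3, -0.60) and RNU7-80P (GNG12, -2.09) went the other way in WT cells. Whether reads of a locus came from its host was not tested. Copies ending in P were 50.3% to 95.7% identical to the closest named gene of their family.

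Genes of the pathway that make or bind snRNAs were read from lists, to be set beside the 22.1% of all genes called higher and 27.1% called lower in STAU1-KO cells and the 27.6% higher and 32.7% lower in WT cells. The mRNAs of the Sm proteins, which form the ring on snRNAs, fell in spindles for 7 of 7 tested genes in both genotypes. SNRPF, a subunit of the ring, had 6.67 and 5.91 FPKM in STAU1-KO spindles, 27.4 and 26.8 FPKM in STAU1-KO input, 2.01 and 1.90 FPKM in WT spindles, and 33.9 and 30.0 FPKM in WT input. Its change was -1.95 ± 0.10 (limma adjusted p = 0.000235) in STAU1-KO cells and -3.48 ± 0.10 (limma adjusted p = 5.88e-05) in WT cells. The mRNAs of LSm proteins, most of which form the related ring on U6, fell for 9 of 10 in STAU1-KO cells and 10 of 10 in WT cells, with LSM1 among them at 5.61 and 5.10 FPKM in STAU1-KO spindles, 29.6 and 28.4 FPKM in STAU1-KO input, 4.79 and 4.79 FPKM in WT spindles, and 36.2 and 33.6 FPKM in WT input.

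The mRNAs of proteins bound to single snRNPs were mixed. Of 12 tested U2 snRNP genes, 3 fell in STAU1-KO cells (25.0%, near the share of all genes) and 7 in WT cells (58.3%), and none rose. SF3B5, a subunit of the SF3B complex, had 23.4 and 25.6 FPKM in STAU1-KO spindles, 96.6 and 89.2 FPKM in STAU1-KO input, 7.71 and 13.2 FPKM in WT spindles, and 118 and 111 FPKM in WT input. Of 17 tri-snRNP genes, 1 rose and 6 fell (35.3%) in STAU1-KO cells and 0 rose and 8 fell (47.1%) in WT cells. Of 6 U1 snRNP genes, 3 rose and 1 fell in STAU1-KO cells and 2 rose and 2 fell in WT cells; PRPF39 rose in both, by 1.01 ± 0.15 in STAU1-KO cells and 0.54 ± 0.15 in WT cells. SNRPC, a protein of the U1 snRNP, changed by -1.42 ± 0.25 in STAU1-KO cells and -2.73 ± 0.25 in WT cells, a fall in both.

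Of 10 minor spliceosome protein genes, 3 rose and 5 fell in STAU1-KO cells and 2 rose and 6 fell in WT cells. RNPC3, the protein that links U11 and U12, had 5.41 and 4.95 FPKM in STAU1-KO spindles, 2.04 and 1.80 FPKM in STAU1-KO input, 3.27 and 2.49 FPKM in WT spindles, and 1.48 and 1.60 FPKM in WT input, and rose in both genotypes. Of 8 genes of the U7 snRNP and histone mRNA 3′ end formation, 0 rose and 4 fell in STAU1-KO cells and 1 rose and 5 fell in WT cells. Of 24 genes of snRNA transcription and 3′ end formation, 2 rose and 7 fell in STAU1-KO cells and 4 rose and 11 fell in WT cells, where 29.2% fell in STAU1-KO cells, near the share of all genes, and 45.8% in WT cells. Of 23 genes of snRNA export, Sm assembly and import, 0 rose in either genotype, and 11 fell in STAU1-KO cells and 17 in WT cells, COIL among them, which encodes coilin of the Cajal body.

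Among other small RNAs, 234 U6 loci were tested, and 35 were called higher in spindles and 1 lower in STAU1-KO cells, and 57 higher and 5 lower in WT cells. The shares called higher, 15.0% in STAU1-KO cells and 24.4% in WT cells, lie below the 22.1% and 27.6% of all genes. RNU6-26P had 77.0 and 84.1 FPKM in STAU1-KO spindles, 34.2 and 28 FPKM in STAU1-KO input, 54.4 and 49.7 FPKM in WT spindles, and 17.3 and 17.0 FPKM in WT input. Of 28 rows of scaRNAs, which guide the modification of snRNAs in Cajal bodies, 7 rose and 3 fell in STAU1-KO cells and 8 rose and 2 fell in WT cells, so the shares that rose, 25.0% and 28.6%, are near those of all genes. SCARNA17 had 69.5 and 72.0 FPKM in STAU1-KO spindles, 35.5 and 34.7 FPKM in STAU1-KO input, 109 and 143 FPKM in WT spindles, and 48.1 and 49.8 FPKM in WT input. The 10 other snRNA rows, 7 of them U1 variants named RNVU1, had 2 called higher in STAU1-KO cells and 1 in WT cells.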

How the data were processed

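RNA-seq was measured in 8 HCT116 libraries, 2 in each of 4 groups. The processing tools that the submitters' notes name are FastQC, TopHat, featureCounts and DESeq2, and the build is GRCh37; versions, the strand setting and the treatment of reads that match several loci are not given in the sources used here. The authors deposited FPKM per library and as group means, group values in TPM and the percentage of GC per gene, per the file headers. Their comparison tables hold a base mean (a normalised signal), log2 fold changes, a score and p-values with adjusted p-values, per the file headers. Of these the base mean was used here to recover whole reads. Adjusted p-values were used only to set the authors' comparisons beside the limma calls of the loci without P.

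The members, the gene lists and the settings were chosen with earlier results of these data known. Genes with FPKM of at least 1 in at least 2 libraries (17217 of 17788) were fitted with limma 3.58.1 in R 4.3.3 on log2(FPKM + 1), with 4 group means, all 8 libraries (4 residual degrees of freedom) and an intensity trend, in 5 comparisons. P-values were adjusted by Benjamini-Hochberg over all tested genes, with calls under 0.05. The fit was tested on simulated data. FPKM times the gene's ratio of base mean to mean FPKM and 1 number per library came within 0.01 of a whole read for all values, so reads per library could be recovered; the intervals on shares of reads are 95% Wilson intervals and cover counting error only. Named loci were all those without P, the 2 copies of each family with the highest mean FPKM, and up to 3 per direction and comparison with the largest called change and no overlap. Of other pathway genes, those with the smallest p were eligible. Alternatives changed the pseudocount, filter, scaling, libraries in the fit, library weights, the unit (voom on recovered reads) and the replicate block, and left out each library. Sequences came from GENCODE 29 (127 of 137 loci matched by Ensembl ID) and were aligned with Biopython 1.88. No genome of the files' build was used, so no coordinates are given. Some sequences are not reported here.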

Additional observations from a re-analysis of the deposited data

How the results depend on the processing

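The number of loci called in STAU1-KO spindles against input was 24 as reported, 44 with the 2 groups alone, 47 with library weights, 15 with at least 10 recovered reads in at least 2 libraries (an alternative chosen after seeing the data), and 9 to 42 with 1 library left out. In WT spindles against input it was 39, then 16 with library weights, 14 with the 10-read filter and 27 to 57 with 1 library left out. STAU1-KO against WT input gave 0, then 3 with a pseudocount of 0.1, 1 with 0.5, 5 with library weights and 0 to 4 with 1 library left out. STAU1-KO against WT spindles gave 13, then 7 with a pseudocount of 0.1, 0 with the 2 groups alone, 6 with voom on recovered reads, 0 with library weights, 4 with the 10-read filter and 0 to 24 with 1 library left out. The interaction gave 0, then 2 with a pseudocount of 0.1, 1 with 0.5, 1 with equal coding sums and 0 to 11 with 1 library left out. The cause of these shifts was not tested. Among the loci without P, the authors' own spindle-to-input comparisons differed from the limma calls for RNU4-1, RNU5A-1 and RNU4ATAC. In WT cells their DESeq2 adjusted p was 0.0329 for RNU4-1 and 0.00588 for RNU5A-1, neither called there by limma. For RNU4ATAC, called by limma in both genotypes, it was 0.151 in STAU1-KO cells and 0.0569 in WT cells.

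The log2 ratio of the sum of all members, 1.02 in STAU1-KO cells, was 1.72 with equal coding sums and 1.30 with equal upper quartiles. In WT cells, at 0.98, it was 1.98 with equal coding sums, 1.40 with equal upper quartiles and 0.88 over the loci without P. Directions turned for RNU1-1 in WT cells (0.43) and RNU1-2 in STAU1-KO cells (0.17) with equal coding sums. RNU5F-1 in WT cells was -0.68 to 3.33, and RNU1-2 in STAU1-KO cells -0.51 to 0.0645, with 1 library left out. The U1 sum was -0.85 in STAU1-KO cells and -0.28 in WT cells over the loci without P. With the replicate number as a block, 21 loci were called higher and 3 lower in STAU1-KO cells, 38 higher and 3 lower in WT cells, 0 between inputs, 10 lower between spindles and 0 for the interaction. Over all genes, deviations of same-numbered libraries had correlations between -0.05 and 0.02, so the numbers were not treated as a pairing, although the RNU4-2 share went with the number in WT cells. Depth limits most copies: 66 of 137 loci had fewer than 10 reads.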

Other observations

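The share of RNU4-2 among the reads of both U4 genes was 55.7% and 55.9% in STAU1-KO spindles, 56.0% and 55.4% in STAU1-KO input, 51.6% and 57.6% in WT spindles, and 51.5% and 57.6% in WT input. The 95% Wilson interval of WT spindle replicate 1 was 49.1% to 54.1% and that of WT spindle replicate 2 was 55.1% to 60.1%. In WT input the intervals were 49.1% to 53.9% and 55.3% to 59.9%. The WT libraries numbered 1 thus held a smaller share than those numbered 2 in both fractions, while the 4 STAU1-KO libraries lay between 55.4% and 56.0%. This was noticed after the values were seen and was not tested between groups.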
